A study of Mus musculus with 4 samples.

Results

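A set of 10 genes that mark the cells lining blood vessels was followed by symbol through a table of 15424 genes from mouse tumors, and 10 of 10 were found. They are Pecam1, Esam, Cldn5, Emcn, Tek, Tie1, Eng, Robo4, Plvap and Egfl7. The tumors were subcutaneous grafts of R728T1 cells in nude mice, hosts without mature T cells. The labels give these cells as small cell lung cancer from an Rb and P53 mouse model and as non-SMCs, a term they do not spell out. The shTaz tumors carried a knockdown of Taz and the shLuc tumors a luciferase shRNA, with 2 samples labelled for each group. The host strain, sex and age, the number of animals and the shRNA sequence are not given in the sources used here. The cells that grew and the host are both mouse, so a transcript of the tumor cells and of the host vessels carries the same gene name.

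The deposited values are FPKM, fragments relative to transcript length and library size, with 1 column per group and no value per sample. Whether a column combines both samples of its group or holds 1 of them is not stated. There is therefore no spread between replicates, and no difference below has an SD, a test or a p-value. The columns summed to 427921 FPKM in shTaz and 501728 FPKM in shLuc, and the sequencing depth is unknown. Wwtr1, which encodes the Hippo pathway coactivator TAZ, was at 15.1 FPKM in shTaz and 23.4 FPKM in shLuc. Taz in the table is the older symbol of the cardiolipin enzyme gene Tafazzin, at 9.50 FPKM in shTaz and 13.7 FPKM in shLuc. Of 8 neuroendocrine genes looked up because of the labelled cell type, 4 had values, of which Ncam1 and Uchl1 exceeded 1 FPKM in both columns and Syp and Insm1 in neither. Ncam1 was at 43.8 FPKM in shTaz and 39.8 FPKM in shLuc, and Uchl1 at 1.51 FPKM in shTaz and 10.1 FPKM in shLuc.

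Endothelial cells form the inner wall of every vessel. They hold to each other through junction proteins, take up survival signals from angiopoietins through the Tie receptors, and in many capillaries carry windows closed by a thin diaphragm. In a grafted tumor the vessels come largely from the host, and their marker transcripts in whole-tumor RNA depend on how many such cells are present and on how much of each transcript a cell holds. In bulk tumor RNA, fewer endothelial cells and less RNA per cell cannot be told apart.

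The 10 genes were all above 0 in both columns, as was the endothelial cadherin gene Cdh5, so endothelial transcripts were measured in both groups. They are described below as 6 that were lower in shTaz and 4 that were close to equal, a division made after the values were seen. Plvap, Cldn5, Tie1, Eng, Esam and Egfl7 were at 53.8% to 71.2% of their shLuc level. Pecam1, Tek, Robo4 and Emcn were at 93.8% to 115% of it. The summed level of all members was 108 FPKM in shTaz and 169 FPKM in shLuc, or 63.7%. Plvap made up 33.5% of that sum in shTaz and 39.7% in shLuc, and without it the sums were 71.7 FPKM in shTaz and 102 FPKM in shLuc, or 70.1%.

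Upstream sequences are shown for 2 genes of the lower set, Cldn5 and Eng, and for 2 of the near-equal set, Tek and Emcn, to put both sets side by side. RefSeq start sites on GRCm38.p6 (the mm10 assembly) were available for 7 of the 10 members, with 9 start sites in all because Egfl7 has 3. Each line gives the 250 bases before the start, 5′ to 3′ on the gene's plus strand, and capitals mark matches on either strand to 6 motifs. AGGAAG was searched for the ETS factors, a family with several members in endothelium. A second form of the ETS motif was CCGGAAG. The letters AACAAT stood for the SOX family, which includes the endothelial factor genes Sox17 and Sox18. AGATAA stood for the GATA factors. GGAATG stood for the TEAD factors, the partners through which the coactivator TAZ reaches DNA. TGANTCA stood for AP-1. No matches of different motifs overlapped.
Cldn5, chr16:18776597-18776846: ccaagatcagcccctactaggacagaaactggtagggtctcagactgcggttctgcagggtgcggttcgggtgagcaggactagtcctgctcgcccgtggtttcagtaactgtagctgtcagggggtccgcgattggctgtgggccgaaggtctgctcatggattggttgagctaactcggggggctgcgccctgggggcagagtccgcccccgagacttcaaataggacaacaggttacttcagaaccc
Eng, chr2:32646345-32646594: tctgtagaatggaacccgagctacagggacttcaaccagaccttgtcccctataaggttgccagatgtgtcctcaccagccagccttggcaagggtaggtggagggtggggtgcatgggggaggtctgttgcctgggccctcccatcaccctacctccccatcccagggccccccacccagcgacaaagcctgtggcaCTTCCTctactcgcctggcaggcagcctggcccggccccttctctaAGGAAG
Tek, chr4:94739039-94739288: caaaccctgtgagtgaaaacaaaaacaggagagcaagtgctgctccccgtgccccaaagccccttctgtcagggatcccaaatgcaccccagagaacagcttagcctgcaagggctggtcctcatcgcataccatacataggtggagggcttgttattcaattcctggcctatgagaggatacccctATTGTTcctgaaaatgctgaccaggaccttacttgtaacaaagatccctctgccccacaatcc
Emcn, chr3:137340828-137341077: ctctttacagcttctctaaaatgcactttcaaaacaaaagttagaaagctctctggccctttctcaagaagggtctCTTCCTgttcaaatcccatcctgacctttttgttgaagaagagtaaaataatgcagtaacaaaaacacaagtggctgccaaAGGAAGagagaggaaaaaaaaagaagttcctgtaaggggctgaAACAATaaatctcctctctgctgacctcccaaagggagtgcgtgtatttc

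AGGAAG occurred in 6 of the 9 member windows and in 29.5% of 32851 windows of the same length. These 6 windows belonged to Egfl7 (at 2 of its starts), Emcn, Eng, Robo4 and Tie1, so the letters were found in both sets. Part of some windows is transcribed: 212 bases of the Tie1 window and 75 of the Robo4 window lie in GENCODE M21 exons, against at most 27 in any other. AACAAT occurred in 2 member windows, those of Emcn and Tek, and in 9.42% of all windows. CCGGAAG (6.91% of all windows), AGATAA (9.99%), GGAATG (12.6%) and TGANTCA (6.75%) were in none of the 9. The Cldn5 window held no match to any of the 6. The windows did differ in base composition. GC content was 58.0% to 63.2% at the 3 Egfl7 starts, 59.6% for Cldn5, 60.4% for Tie1 and 62.4% for Eng in the lower set. It was 51.2% for Tek, 49.6% for Robo4 and 40.8% for Emcn in the near-equal set, against a median of 52.4% over all windows.

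The junction and surface proteins came from both sets. Cldn5 encodes claudin-5, the main sealing protein of endothelial tight junctions, and was at 10.3 FPKM in shTaz and 18.2 FPKM in shLuc. Esam encodes an immunoglobulin-like adhesion molecule of the same junctions and was at 9.39 FPKM in shTaz and 14.6 FPKM in shLuc. Pecam1 encodes CD31, the adhesion molecule commonly stained to count vessels, and was at 10.8 FPKM in shTaz and 11.5 FPKM in shLuc. The 3 junction genes thus differed among themselves, with Cldn5 at 56.8%, Esam at 64.3% and Pecam1 at 93.8% of shLuc. Emcn encodes endomucin, a mucin-like surface protein of capillary and venous endothelium, and was the member with the highest relative value, at 5.68 FPKM in shTaz and 4.92 FPKM in shLuc.

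The receptors were split in the same way. Tie1 encodes a Tie receptor with no well-established ligand of its own and was at 7.45 FPKM in shTaz and 12.9 FPKM in shLuc. Tek encodes Tie2, the angiopoietin receptor, and was at 0.547 FPKM in shTaz and 0.525 FPKM in shLuc. Tek was thus barely measured in either column, and the Tie1 level was 13.6 times the Tek level in shTaz and 24.6 times in shLuc. Tek is the only member under a mean of 1 FPKM, so its near-equality rests on very low values. Eng encodes endoglin, a co-receptor for BMP9 and BMP10 and for TGF-beta, and was at 9.47 FPKM in shTaz and 15.7 FPKM in shLuc. Robo4 encodes an endothelial member of the Roundabout guidance receptors and was at 3.18 FPKM in shTaz and 3.04 FPKM in shLuc.

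Plvap encodes the protein that builds the diaphragms of fenestrae and caveolae and was the most abundant member in each column, at 36.2 FPKM in shTaz and 67.2 FPKM in shLuc. It had the lowest relative value of the 10, 53.8% of shLuc. Egfl7 encodes a secreted protein of the endothelial matrix and was next in abundance, at 14.9 FPKM in shTaz and 20.9 FPKM in shLuc.

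Egfl7 also carries the microRNA miR-126a, which lies at chr2:26591402-26591423 in an intron of every coding Egfl7 transcript and in an exon of a non-coding one (GENCODE M21). Its mature 3p strand is printed because the host transcript is the only measure of that locus used here. Capitals mark the seed, bases 2 to 8, and the sequence is from RefSeq.
mmu-miR-126a-3p: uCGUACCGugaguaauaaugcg

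**Figure D1:**
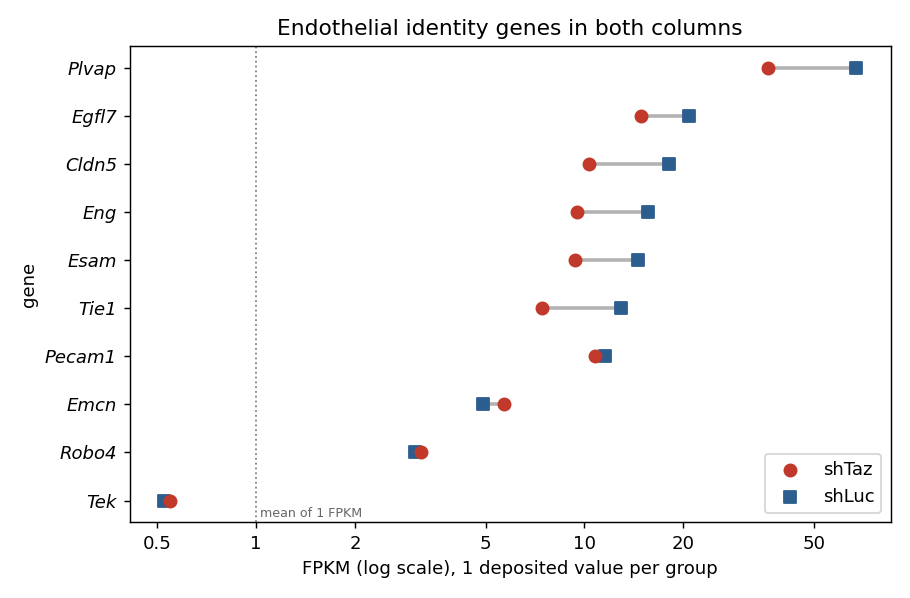
FPKM of the 10 genes on a log axis, with 1 deposited value per group (circle, shTaz; square, shLuc). Plvap, Egfl7, Cldn5, Eng, Esam and Tie1 have their circle left of the square, whereas both marks lie close together for Pecam1, Emcn, Robo4 and Tek.

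The order of the levels moved mainly through Pecam1. In shTaz the order from high to low was Plvap, Egfl7, Pecam1, Cldn5, Eng, Esam, Tie1, Emcn, Robo4 and Tek. In shLuc it was Plvap, Egfl7, Cldn5, Eng, Esam, Tie1, Pecam1, Emcn, Robo4 and Tek. With no replicate values it cannot be said which neighbours in either order differ. Plvap exceeded the level of 86.8% of the genes averaging 1 FPKM or more in shTaz and of 92.5% in shLuc. Relative to Pecam1, Plvap was 3.34 times as high in shTaz and 5.83 times in shLuc, Cldn5 was 0.954 times in shTaz and 1.57 times in shLuc, and Eng was 0.876 times in shTaz and 1.36 times in shLuc. These ratios show that the genes differed unequally, not which of them was constant.

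The difference of a gene was taken as log2((shTaz FPKM + 1) / (shLuc FPKM + 1)) and is compressed for low values because of the added 1. It was -0.88 for Plvap, -0.76 for Cldn5, -0.72 for Tie1, -0.67 for Eng, -0.59 for Esam and -0.46 for Egfl7. It was -0.08 for Pecam1, 0.02 for Tek, 0.05 for Robo4 and 0.17 for Emcn. The median of the 10 was -0.53, against 0.12 over the 11650 genes averaging 1 FPKM or more, a level that 9 of the members reached. A gene is called 2-fold different at 1 or more on this scale, so a gene of low level can be more than 2-fold apart in FPKM and miss the call. None of the 10 was 2-fold lower or higher, against 3.25% of all these genes lower and 3.96% higher. Of the members, 5 were lower by at least 0.5 and none was higher by that much, against 12.5% of all genes lower and 22.6% higher. By any amount 7 of the 10 were lower, against 41.7% of all genes. Plvap, the most different member, had 4.32% of all genes below it, and Emcn had 54.5%.

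**Figure D2:**
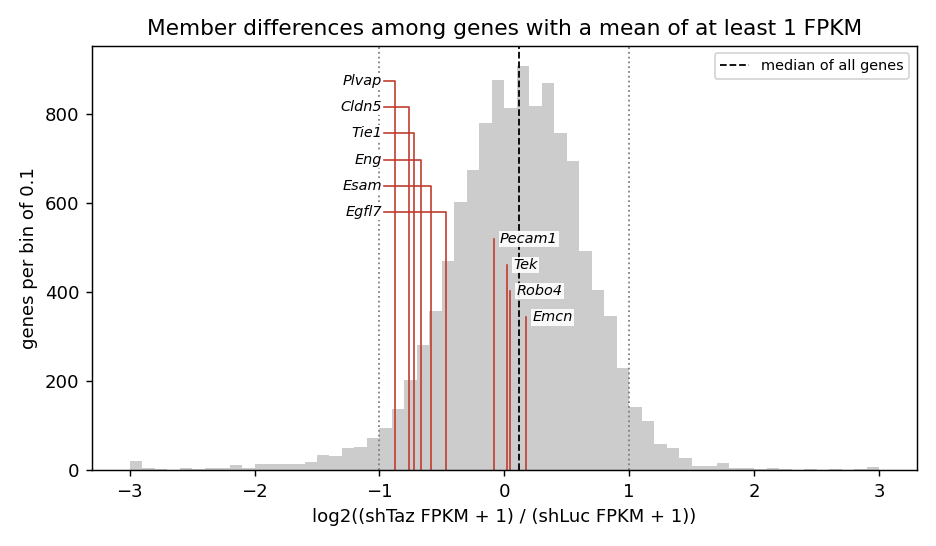
Histogram of the log2 difference, shTaz over shLuc, for 11650 genes averaging 1 FPKM or more (values beyond 3 are drawn at 3), with red lines at the 10 members and dotted lines at 2-fold. The 6 lower members lie from -0.88 to -0.46 on the left shoulder, and Pecam1, Tek (mean under 1 FPKM), Robo4 and Emcn lie near the dashed median of 0.12.

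The lower and near-equal members also differed in transcript GC content, and the difference between the columns followed GC content over all genes. The difference had a Spearman correlation of -0.55 with the GC content of the longest transcript across these genes, which are not independent replicates. Over the 10 members it was -0.90, a description of genes measured in the same pair of columns. Plvap (60.6% GC) and Cldn5 (60.5%) were the most GC-rich and had the lowest differences, and Emcn (40.7%) was the most AT-rich and had the highest. Tie1 (57.6%), Eng (57.4%), Egfl7 (57.1%) and Esam (53.7%) were GC-rich as well, while Pecam1 (50.2%) and Tek (47.1%) were near or under the median of 50.2% over all genes. Robo4 (54.9%) was the exception, GC-rich and yet nearly equal.

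Each member can be read against genes of like composition. Genes were divided into deciles of GC content. The most GC-rich decile, which holds Plvap and Cldn5, had a median difference of -0.38. The next decile, with Tie1, Eng and Egfl7, had a median of -0.20, and the most AT-rich decile, with Emcn, a median of 0.56. Emcn, the highest of the 10, was thus below the median of its own decile, as were Tek (decile median 0.28) and Pecam1 (0.08). Robo4, at 0.05, was above its decile's median of -0.08.

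With the GC trend removed, the members lay closer together. Their differences ranged from -0.54 to 0.15, against -0.88 to 0.17 as deposited, and the median was -0.36. Esam was then the lowest at -0.54, followed by Tie1 at -0.48, Plvap at -0.47 and Eng at -0.43. Cldn5 was at -0.37, Emcn at -0.35, Tek at -0.27, Egfl7 at -0.25 and Pecam1 at -0.22, so that Robo4 alone stayed positive. By this measure 9 of the 10 were lower, against 49.7% of all genes, but only Esam was lower by at least 0.5, against 13.0% of all genes. The count of members lower by at least 0.5 was therefore 5 as deposited and 1 with the GC trend removed. The part of base composition in the differences of single members was not tested.

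**Figure D3:**
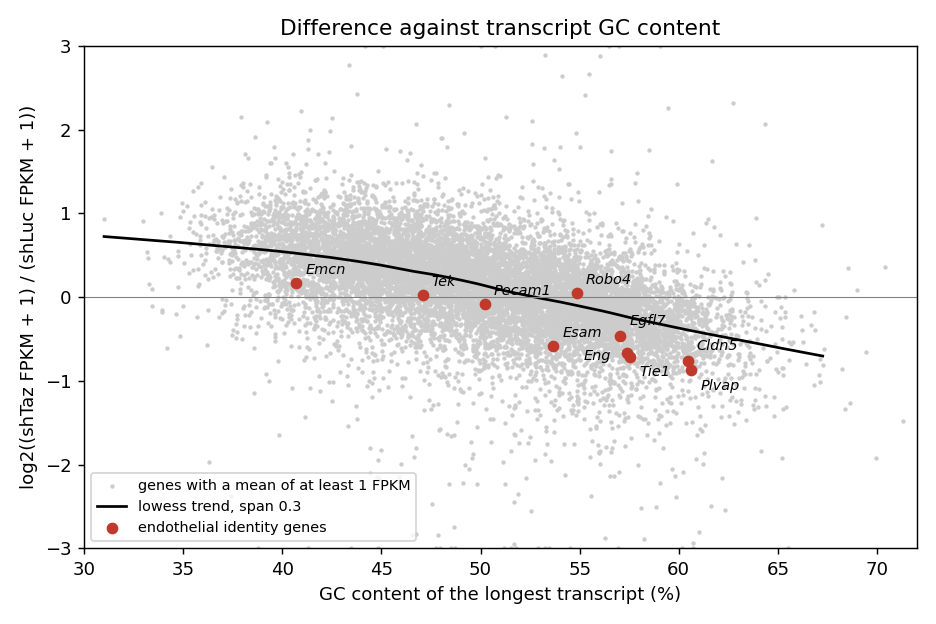
Log2 difference, shTaz over shLuc, against the GC content of the longest transcript in percent. Grey points are genes averaging 1 FPKM or more, the black line is the lowess trend and red points are the 10 members, of which all but Robo4 lie below the line.

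Other endothelial genes had a median closer to 0, with genes on both sides. Of 27 listed genes 26 were found and 22 averaged 1 FPKM or more. With 1 added to each value, 1 of these was 2-fold lower and none 2-fold higher, against 3.25% of all genes lower and 3.96% higher. By at least 0.5, 4 of the 22 were lower and 1 was higher, against 12.5% of all genes lower and 22.6% higher. By any amount 14 were lower and 8 higher, against 41.7% of all genes lower. The median was -0.09, or -0.21 with the GC trend removed. The 26 genes found summed to 143 FPKM in shTaz and 186 FPKM in shLuc, or 76.9%. Ramp2, the adrenomedullin receptor partner needed for vessel integrity, was the 2-fold lower gene, at 6.56 FPKM in shTaz and 17.5 FPKM in shLuc. Myct1 missed the call at a difference of 0.79, with 2.04 FPKM in shTaz and 0.761 FPKM in shLuc, or 269%. Cdh5, which encodes VE-cadherin, the defining adhesion protein of endothelial junctions, was at 15.0 FPKM in shTaz and 16.1 FPKM in shLuc, or 93.1%, close to the share seen for Pecam1. Cd34, a sialomucin of capillary endothelium, was at 17.2 FPKM in shTaz and 21.3 FPKM in shLuc. The VEGF receptor genes were low, with Kdr at 2.68 FPKM in shTaz and 1.69 FPKM in shLuc, and Flt1 at 2.33 FPKM in shTaz and 2.55 FPKM in shLuc. Vwf, which encodes von Willebrand factor, was at 0.260 FPKM in shTaz and 0.314 FPKM in shLuc. With Tek, Vwf stands for well-known endothelial genes that were barely measured in either column.

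The transcription factors that set endothelial identity lay on both sides, with 6 lower and 8 higher, against 41.7% of all genes lower. Of 16 listed, 14 averaged 1 FPKM or more. Once 1 was added to each value, 1 of them was 2-fold lower and 2 were 2-fold higher, against 3.25% of all genes lower and 3.96% higher. The median was 0.19, or 0.06 with the GC trend removed. Sox18, a SOX factor of vessel and lymphatic development, was at 4.74 FPKM in shTaz and 17.0 FPKM in shLuc. The GATA factor gene Gata2 missed the call at a difference of -0.84, with 2.34 FPKM in shTaz and 4.98 FPKM in shLuc, or 46.9%. The ETS factor gene Fli1, which leukocytes also express, was at 9.15 FPKM in shTaz and 3.41 FPKM in shLuc, and Foxf1 (listed as Foxf1a), a forkhead gene of mesenchyme and lung endothelium, at 7.58 FPKM in shTaz and 2.36 FPKM in shLuc. Erg, the ETS factor most restricted to endothelium, was at 10.2 FPKM in shTaz and 7.19 FPKM in shLuc, and Sox17 was at 1.12 FPKM in shTaz and 0.686 FPKM in shLuc.

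The signaling partners of the receptors were likewise mixed. Angpt1, the ligand that activates Tie2, was at 10.3 FPKM in shTaz and 5.87 FPKM in shLuc. Its counterpart Angpt2 was at 0.928 FPKM in shTaz and 0.760 FPKM in shLuc, and Dok2, an adaptor that binds active Tie2 and is also made in blood cells, was at 18.0 FPKM in shTaz and 12.1 FPKM in shLuc. Only 3 of 8 genes of that list reached a mean of 1 FPKM, and none was 2-fold different. Among 11 measured partners of endoglin, Id3, a target gene of BMP receptors, was the only 2-fold different gene, at 36.5 FPKM in shTaz and 122 FPKM in shLuc. The type I receptor gene Acvrl1, whose product works with endoglin, was at 9.99 FPKM in shTaz and 9.20 FPKM in shLuc. The list median was 0.17, or 0.01 with the GC trend removed. For Robo4, the partner receptor gene Unc5b was at 9.40 FPKM in shTaz and 14.0 FPKM in shLuc and the Slit family ligand gene Slit3 at 0.906 FPKM in shTaz and 1.67 FPKM in shLuc, the 2 genes of 6 averaging 1 FPKM or more.

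Junction, caveola and vessel-type genes gave no common direction either. Among 10 measured junction genes none was 2-fold different with 1 added to each value, and the median was -0.01. The FPKM values of 2 of them were more than 2-fold apart. Jam3, a junctional adhesion molecule gene, was at 2.98 FPKM in shTaz and 6.95 FPKM in shLuc, and Tjp1, which encodes the scaffold ZO-1, at 5.03 FPKM in shTaz and 2.13 FPKM in shLuc. Among 7 measured caveola and fenestra genes 3 were lower and 4 higher, against 41.7% of all genes lower. The 8 listed genes summed to 291 FPKM in shTaz and 293 FPKM in shLuc. Cav1 was at 61.8 FPKM in shTaz and 41.4 FPKM in shLuc and Cav2 at 6.75 FPKM in shTaz and 4.40 FPKM in shLuc. The median of the 7 was 0.40, in the other direction from Plvap. With the GC trend removed that median was 0.04.

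The median of 6 measured arterial genes was -0.25, or -0.06 with the GC trend removed. Of these, Hey1, a Notch target, was at 1.36 FPKM in shTaz and 2.68 FPKM in shLuc, and Efnb2, the ephrin-B2 gene, at 7.15 FPKM in shTaz and 5.003 FPKM in shLuc. Of 5 venous genes (median 0.05, or -0.32 with the GC trend removed), 2 were lower and 3 higher. Ackr1 (listed as Darc), the chemokine receptor of venules, was at 0.418 FPKM in shTaz and 3.010 FPKM in shLuc. The most different of the higher genes was Vcam1, at 38.7 FPKM in shTaz and 20.7 FPKM in shLuc. Of 9 tip cell genes (median -0.05, or 0.21 with the GC trend removed), Esm1, endocan, was at 3.72 FPKM in shTaz and 0.711 FPKM in shLuc, Nid2, a basement membrane nidogen, at 22.4 FPKM in shTaz and 9.42 FPKM in shLuc, and Pgf, placental growth factor, at 3.93 FPKM in shTaz and 16.003 FPKM in shLuc. Of 3 measured lymphatic genes (median 0.60, or 0.39 with the GC trend removed), 1 was lower and 2 higher. Lyve1, which macrophages also express, was at 3.15 FPKM in shTaz and 1.47 FPKM in shLuc. Pdpn, podoplanin, was at 10.7 FPKM in shTaz and 6.68 FPKM in shLuc. Flt4 was the lower gene, with shTaz at 59.3% of its shLuc level. Prox1, the defining lymphatic factor gene, was not analysed here.

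Markers of other cells that touch vessels or share these genes also differed between the columns. Eng is also made by fibroblasts and macrophages, and Pecam1 and Esam also by leukocytes or platelets. Fibroblast markers summed to 1392 FPKM in shTaz and 2198 FPKM in shLuc. Of 10 measured genes 6 were 2-fold lower, against 3.25% of all genes. Their median was -1.17, or -1.02 with the GC trend removed. The 4 most different were Dpt, Dcn, Postn and Fbln1, all lower in shTaz, with Dpt at 1.16 FPKM in shTaz and 18.4 FPKM in shLuc. Pericyte markers summed to 45.6 FPKM in shTaz and 59.4 FPKM in shLuc. Of 9 measured, 7 were lower and 2 higher, against 41.7% of all genes lower. Their median was -0.71, or -0.42 with the GC trend removed. Notch3 was at 0.918 FPKM in shTaz and 4.42 FPKM in shLuc, and Higd1b was listed at 0 in shTaz and at 2.34 FPKM in shLuc. Rgs5 was higher, at 12.0 FPKM in shTaz and 4.84 FPKM in shLuc, and so was Des, at 3.004 FPKM in shTaz and 0.586 FPKM in shLuc.

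Markers of blood cells differed by cell type. The 6 pan-leukocyte markers were all higher in shTaz, whereas 41.7% of all genes were lower. Their median was 0.70, or 0.50 with the GC trend removed, and they summed to 497 FPKM in shTaz and 403 FPKM in shLuc. Ptprc, which encodes CD45, was at 10.7 FPKM in shTaz and 3.96 FPKM in shLuc and Cd53 at 14.9 FPKM in shTaz and 6.50 FPKM in shLuc. Macrophage markers summed to 5004 FPKM in shTaz and 5144 FPKM in shLuc. The median over 12 genes was 0.34, or 0.23 with the GC trend removed, and Mertk was at 3.22 FPKM in shTaz and 0.969 FPKM in shLuc. Platelet markers summed to 68.4 FPKM in shTaz and 51.0 FPKM in shLuc, most of it Pf4, which macrophages can also express. Of these, Gp1bb was at 0.720 FPKM in shTaz and 2.38 FPKM in shLuc, Ppbp at 1.71 FPKM in shTaz and 0.829 FPKM in shLuc, and the platelet glycoprotein genes Gp1ba and Gp9 were listed at 0 in shTaz, with Gp1ba at 0.288 FPKM and Gp9 at 0.593 FPKM in shLuc, so both were barely measured in either column. Erythroid markers summed to 383 FPKM in shTaz and 513 FPKM in shLuc. The most different were the globin genes Hba-a2, at 1.61 FPKM in shTaz and 0.413 FPKM in shLuc, and Hbb-bs (listed as Beta-s), at 143 FPKM in shTaz and 228 FPKM in shLuc, which have near-identical copies and are uncertain. The part of these cell types in the member values was not tested.

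**Figure D4:**
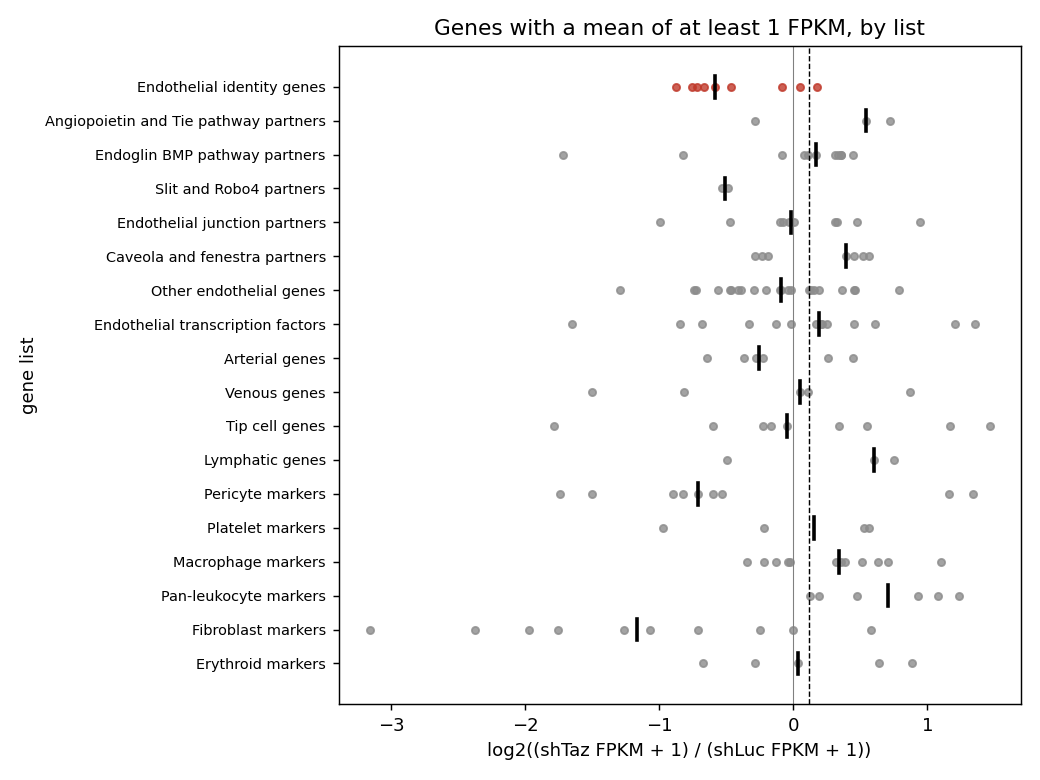
Log2 difference, shTaz over shLuc, of each gene averaging 1 FPKM or more, by list, with a black bar at the list median and a dashed line at the median of all genes (0.12). The fibroblast and pericyte markers have medians of -1.17 and -0.71, the 9 endothelial identity genes with that mean lie from -0.88 to 0.17, and the pan-leukocyte markers have a median of 0.70.

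In the genome the members are spread over 7 chromosomes (mm10, GENCODE M21). Esam (chromosome 9, 37528078 to 37538319, plus strand) and Robo4 (chromosome 9, 37401897 to 37415115, plus strand) lie 112962 bases apart with 2 protein-coding genes between them, Robo3 and Msantd2, and fall in different sets. Tie1 (chromosome 4, 118471191 to 118490061, minus strand) and Tek (chromosome 4, 94739289 to 94874976, plus strand) also fall in different sets, and Eng (chromosome 2, 32646595 to 32682669, plus strand) and Egfl7 (chromosome 2, 26580014 to 26593120, plus strand) in the same. Cldn5 is on chromosome 16 (18776847 to 18778262, plus strand), Plvap on chromosome 8 (71497765 to 71511752, minus strand), Pecam1 on chromosome 11 (106654217 to 106750628, minus strand) and Emcn on chromosome 3 (137341067 to 137432185, plus strand). Exons of Eng overlap those of Fpgs on the other strand over 1.51% of their bases, and exons of Egfl7 overlap those of Agpat2 on the other strand over 1.79% and those of Gm20532 on the same strand over 7.37%. Fpgs was at 10.3 FPKM in shTaz and 16.1 FPKM in shLuc, and Agpat2 at 2.32 FPKM in shTaz and 6.64 FPKM in shLuc. The strand setting of the counting is not given in the sources used here, so reads of these stretches cannot be told apart.

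Across the alternatives tried, Plvap, Cldn5, Tie1, Eng, Esam, Egfl7 and Pecam1 had a negative difference in each of 8. Dropping the filter on low values, or requiring a mean of at least 5 FPKM, left the difference of each kept gene unchanged. The sign could not change under those filter settings, so only the other alternatives bear on it. Plvap ranged from -1.01 to -0.42, Tie1 from -0.94 to -0.48, Cldn5 from -0.89 to -0.23 and Esam from -0.71 to -0.48. The sign of the near-equal genes did not hold, with Emcn from -0.39 to 0.20, Tek from -0.34 to 0.05 and Robo4 from -0.21 to 0.15. Median-ratio scaling moved the median of all genes from 0.12 to 0.00, and Plvap was then 2-fold lower.

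**Figure D5:**
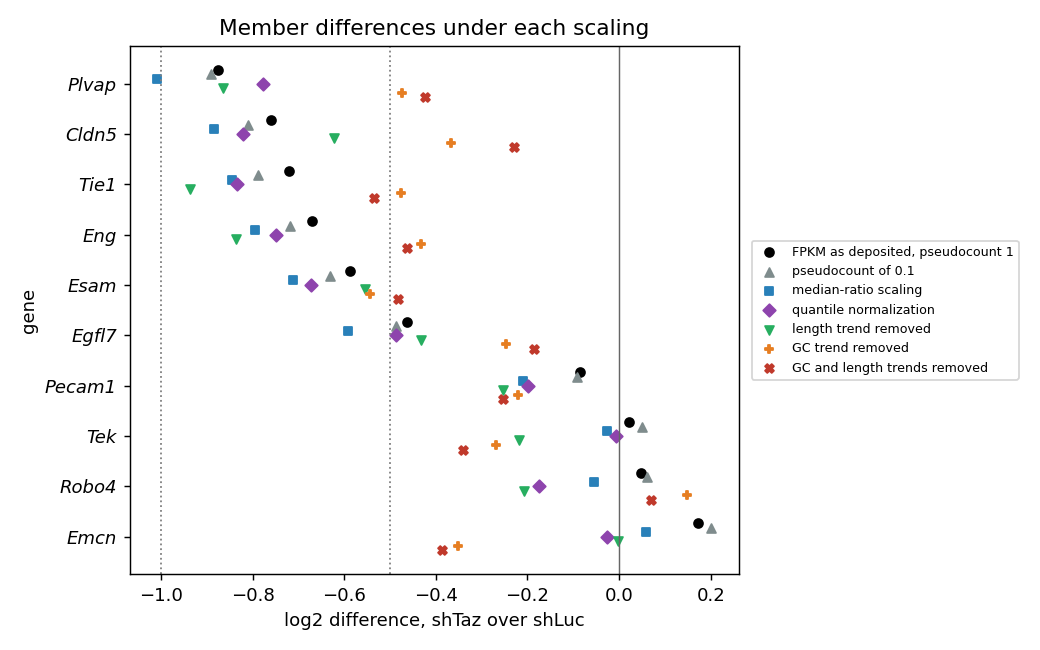
Log2 difference, shTaz over shLuc, of each member as deposited (black circle) and under 6 other scalings, with dotted lines at -0.5 and -1. Plvap to Pecam1 stay left of 0 under each, Emcn, Robo4 and Tek lie on either side of it, and removal of the GC trend brings the members closer together.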

How the data were processed

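RNA from subcutaneous tumors was measured in 4 samples, 2 per group, grouped by their titles. Per the labels' protocols, tumors were frozen, RNA was extracted with Trizol and libraries followed standard Illumina protocols. Per the submitters' processing notes, Trim Galore, TopHat and mm10 were used. Versions, the FPKM program, the annotation and the strand setting are not given in the sources used here. The authors deposited FPKM values with 1 column per group. Each heading matches a label of both samples of that group. Whether a column is a mean, a joint estimate or 1 library is not stated. The table holds no gene that is at 0 in each column.

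The members and gene lists were chosen with earlier results of these data known. Genes of other lists are named by size: up to 4 that averaged 1 FPKM or more and had a log2 difference of at least 1, otherwise the 2 most different. Cdh5, Kdr, Flt1, Vwf, Cd34, Erg, Fli1 and Sox17 were named in any case. Acvrl1, Angpt2, Gata2, Myct1, Pf4, Gp1ba, Gp9, Flt4, Vcam1, Fpgs and Agpat2 were named after their values were seen.

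Differences used a pseudocount of 1. The background is all genes averaging 1 FPKM or more. Transcript length and GC content are those of the longest GENCODE M21 transcript, found for 99.1% of them. Trends were removed by lowess (span 0.3, statsmodels 0.14.6), tested on simulated data. Low FPKM values times length showed no whole-read steps: the best step placed 28.9% of 1147 low shTaz values and 25.8% of 1161 low shLuc values within 0.1 of a whole number, where 20% is chance for a single step. Depth is thus unknown and no counting interval is given.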

Additional observations from a re-analysis of the deposited data

How the results depend on the processing

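The median difference of the 10 genes, -0.53 as deposited, was negative under each alternative run. It was -0.56 with a pseudocount of 0.1, -0.65 with median-ratio scaling, -0.58 after quantile normalization, -0.49 once the length trend was removed and -0.36 after removal of the GC trend, alone or with the length trend. It was -0.63 over the 8 members averaging 5 FPKM or more, -0.46 without Plvap, and -0.59 over the 9 members averaging 1 FPKM or more, a choice made after the data were seen. The count of members lower by at least 0.5 was 5 as deposited, 6 with median-ratio scaling and 4 without Plvap. It was 1 with the GC trend or both trends removed. That 1 gene was not the same: Esam (-0.54) with the GC trend removed and Tie1 (-0.53) with both removed. The count of members 2-fold lower was 0 as deposited and 1, Plvap, with median-ratio scaling. No paired analysis was possible because the table holds 1 column per group, and no replicate could be left out for the same reason. With no spread between samples and unknown depth, no member's difference could be tested, so none can be shown to differ from equality. As deposited, the smallest differences were those of Pecam1, Tek, Robo4 and Emcn.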
